A study of Sus scrofa domesticus with 150 samples.

Results

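The genes described here were the matrix metalloproteinases MMP1, MMP2, MMP3, MMP9, MMP13, MMP14 and MMP19 and the tissue inhibitors of metalloproteinases TIMP1, TIMP2 and TIMP3 in healing skin wounds of pigs. The members were taken from the gene count table by symbol, using the table's own gene name or, where it gave none, the gene name in the protein match of the row's description. Of the 10 symbols, 9 were found, and they covered 10 of the 30461 rows, because TIMP3 had 2 rows. MMP3 had no row of its own. The row named MMP1 (ENSSSCG00025039149) carried a protein match to pig interstitial collagenase, which is MMP1, and an mRNA description that named MMP3, so the row may hold reads of both genes. It is called MMP1 below. The row spanned 42823 bases of 1 contig, from 2458848 to 2501670 on the plus strand, between the rows of MMP12 and MMP8, and the row of MMP13 (ENSSSCG00025038297) lay on the same contig at 2344904 to 2363889. The genome build was not given in the sources used here.

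The samples came from 6 female Yorkshire-mix pigs, each with 12 full-thickness circular excisional wounds of the dorsum and therefore 72 wounds in all. Every wound was covered with Telfa Clear and Tegaderm and received no other treatment, apart from a topical antibiotic where biopsies were taken. The skin excised from each of the 6 animals served as day 0, and each wound gave a biopsy of its edge and a biopsy of its center on 1 of 14 days, so that the 150 libraries fell into 29 states of day and location. The daily samplings of days 1 to 7 and those of days 9, 11 and 13 had 6 samples per location, from 2 wounds in each of 3 animals, and days 15, 16, 19 and 21 had 3 samples per location, 1 per animal. Animals 1 to 3 gave days 1, 3, 5, 7, 11, 15 and 21 and animals 4 to 6 gave days 2, 4, 6, 9, 13, 16 and 19, so a step between neighbouring days was usually a step between animals as well. Wounds of 1 animal were not independent animals, and p-values over wounds measure the spread between these samples.

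Matrix metalloproteinases are zinc-dependent proteinases that cut components of the extracellular matrix, and most are made as inactive proenzymes. MMP1 and MMP13 are collagenases that cut fibrillar collagen, MMP2 and MMP9 are gelatinases that cut denatured collagen and basement membrane, MMP14 is anchored in the cell membrane and activates proMMP2, and MMP3 is a stromelysin. The TIMP proteins bind the active site of these enzymes, TIMP2 also takes part in the activation of proMMP2 on MMP14, and TIMP3 binds to the matrix and inhibits several ADAM and ADAMTS proteinases. In skin wounds, keratinocytes that migrate over collagen are a known source of MMP1, while fibroblasts, macrophages and neutrophils are known sources of other members.

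The total count per library ranged from 13133379 to 24895572, with a median of 17643938.5, so that 3 counts, used here as the lower limit of detection, corresponded to 0.121 to 0.228 CPM, the count of a gene scaled to the total of its library. The identity of the biopsies was checked with marker lists. The summed level of 7 keratinocyte markers was 27774 to 71397 CPM in day 0 skin, had a median of 47087 CPM at the edge and a median of 266 CPM in the center, and in the center reached 38982 to 44209 CPM on day 21. Some libraries stood apart from their location. The day 3 edge library of replicate 6 held 79.5 CPM of keratinocyte markers against 15226 to 49060 CPM in the other 5, the day 1 center library of replicate 5 held 20289 CPM against 141 to 564 CPM, and the day 3 center library of replicate 4 held 32782 CPM. Skeletal muscle markers had state medians of 2.3 to 12.1 CPM and reached 63244 CPM in the day 2 center library of replicate 2. They were also high in other libraries. These include the day 6 center of replicate 5 (49746 CPM) and the day 9 edge and center of replicate 5 (38223 and 30366 CPM). Further ones were the center of day 2 replicate 6 (20849 CPM), day 3 replicate 3 (13539 CPM) and day 1 replicate 6 (9933 CPM). Adipocyte markers, summed over 6 genes, were 92.6 to 1415 CPM in day 0 skin. On day 1 they were 3991 to 15093 CPM in the center and 26.9 to 1303 CPM at the edge. On day 2 they were 1312 to 9690 CPM in the center and 429 to 1728 CPM at the edge. Early center biopsies thus also differed from edge and skin in fat transcripts, whose part in the member levels was not tested. For MMP1 and MMP13, the edge to center tests of days 1 and 3 are given with and without the libraries of unlike keratinocyte markers. The counts within wounds, the means by animal and the tests over several days include all libraries unless stated.

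Against day 0 skin, most members were higher in the wound on most days, and TIMP3 was lower. The fit of all 150 samples was tested in edgeR by quasi-likelihood, p-values were adjusted by the Benjamini-Hochberg method across the 17916 genes tested, and a call is an adjusted p below 0.05. In the wound center, 104 of 140 pairs of member row and day were higher than day 0, beside 28.2% of all gene and day pairs, and 21 pairs were lower, beside 27.5%. At the wound edge, 98 of 140 pairs were higher, beside 19.9%, and 22 were lower, beside 14.6%. The median log2 fold change of the members was 2.98 in the center and 2.07 at the edge, and that of all genes was -0.02 and -0.01. All 28 comparisons used the same 6 day 0 samples, so they share the error of those samples. The biopsies hold many cell types, and in such bulk samples a change in the number of cells of a type and a change in RNA per cell cannot be told apart.

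**Figure D1:**
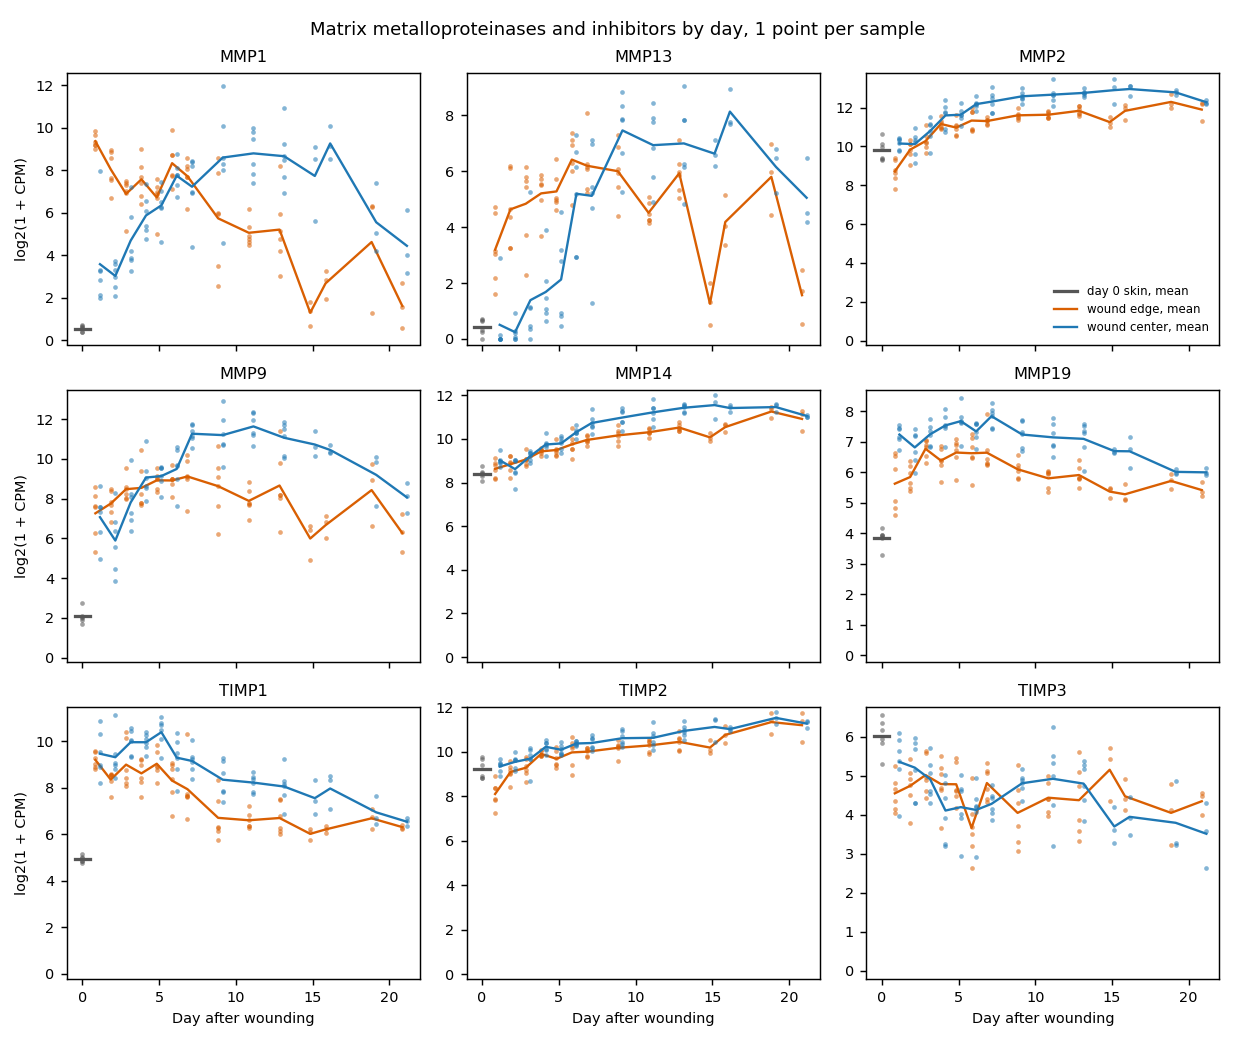
Level of each member as log2(1 + CPM) on the vertical axis by day after wounding, with 1 point per sample, orange for the wound edge, blue for the wound center and grey for day 0 skin. Lines join the state means and grey bars mark the day 0 means. MMP1 and MMP13 start higher at the edge and end higher in the center, while MMP19 and TIMP1 lie higher in the center over most of the course.

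Edge and center of the same day were compared in 14 separate fits, and here the members differed mostly in the direction of the center. Over the 14 days, 136 pairs of member row and day passed the filter on low counts. Of these, 7 were higher at the edge, beside 12.5% of all gene and day pairs, and 46 were higher in the center, beside 11.0%. The median log2 difference, edge over center, was -0.55 for the members and -0.02 for all genes. The 7 pairs higher at the edge belonged to MMP1, MMP13 and, on 1 day, TIMP3, and all but that of TIMP3 were found on days 1 to 5. With the wound as a block, which compares edge and center within each wound, 11 pairs were higher at the edge and 46 in the center. Without replicate 3, one of the 3 samples per location of days 15 to 21, 25 pairs were higher in the center.

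The share of members called varied by day, as did the share of all genes. On day 1, 4 of 10 member rows were called in either direction, beside 46.6% of all genes, on day 2 4 of 10, beside 35.5%, and on day 4 4 of 9, beside 27.8%. On day 5, 4 of 10 were called, beside 37.1%, on day 6 1 of 10, beside 14.2%, and on day 7 4 of 10, beside 37.4%. Up to day 7 the members' share was therefore on most days near the share of all genes. On day 9, 5 of 10 were called, beside 31.6%, on day 11 7 of 10, beside 43.4%, and on day 13 5 of 9, beside 28.4%. On day 15, 8 of 10 were called, beside 17.4%, and on day 16 7 of 9, beside 10.1%. From day 9 to day 16 the members' share lay above that of all genes. No member was called on day 3, beside 0.0% of all genes, on day 19, beside 0.0%, or on day 21, beside 0.0684%. On these 3 days, edgeR gave an unadjusted p below 0.05 for 2, 0 and 4 member rows, and DESeq2, another count model, called 0, 0 and 2.

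**Figure D2:**
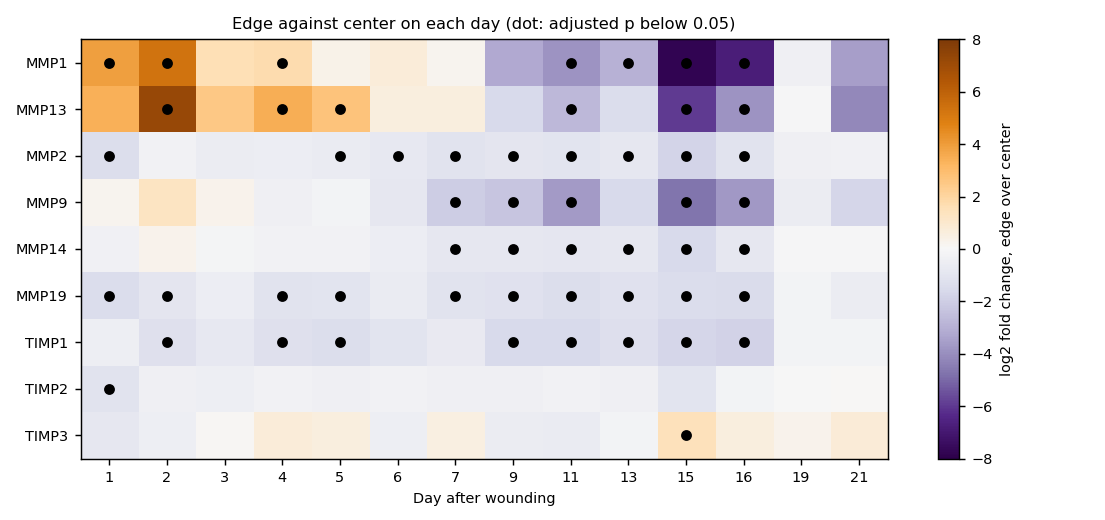
Log2 fold change of edge over center for each member and day, orange where the edge was higher and purple where the center was higher, with a dot where the adjusted p was below 0.05. The color changes from orange to purple between day 7 and day 9 in the rows of MMP1 and MMP13, and the rows of MMP19 and TIMP1 are purple on every day.

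MMP1 was close to the limit of detection in day 0 skin and was among the strongest changes of the members. Its level in the 6 day 0 samples was 0.47, 0.628, 0.573, 0.327, 0.526 and 0.3 CPM, from 5 to 11 counts. On day 1 it was 515 to 915 CPM at the edge, with a median of 616 CPM, and 2.94 to 8.80 CPM in 5 of the 6 center samples. The sixth center sample, replicate 5, had 249 CPM and was the library with 20289 CPM of keratinocyte markers. The edge and center groups did not overlap on day 1, and each of the 12 samples was above every day 0 sample. The log2 fold change of edge over center was 3.89 ± 1.14 (SE, n = 6 per location, adjusted p = 0.0144) on day 1 and 6.77 without replicate 5.

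On day 2 the edge samples of MMP1 ranged from 102 to 504 CPM and the center samples from 3.23 to 12.2 CPM, again without overlap, with a log2 fold change of 5.32 ± 0.47 (adjusted p = 1.58e-06). On day 3 the log2 fold change was 1.61 ± 0.70 with an adjusted p of 0.435. Without the day 3 center library of replicate 4 and the day 3 edge library of replicate 6, which were left out after the data had been seen together with 4 other libraries that stood apart, it was 2.88 ± 0.47 with an adjusted p of 0.00167, and 18.1% of all genes were then called. On day 4 the edge was higher by 1.71 ± 0.54 (adjusted p = 0.0304), a call that was lost without replicate 2, 3, 4 or 5 and a value of 2.36 without replicate 1. On days 5, 6 and 7 the groups overlapped and no difference was called, although with the wound as a block the 0.39 of day 5 was called (adjusted p = 0.0093).

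From day 9 the center held more MMP1 than the edge. On day 9 the center samples ranged from 22.8 to 4071 CPM, with a median of 352 CPM, and the edge samples from 4.87 to 378 CPM, with a median of 61.9 CPM. The difference of day 9, -3.19 ± 1.22, had an adjusted p of 0.064, or 0.044 with the wound as a block. On day 11 the center samples ranged from 170 to 1002 CPM, with a median of 510.4 CPM, and the edge samples from 21.3 to 72.4 CPM, with no overlap between them. The log2 fold change was -3.83 ± 0.52 (adjusted p = 0.000182) and lay between -4.30 and -3.47 when any 1 wound was left out. On day 13 it was -2.96 ± 0.91 (adjusted p = 0.0273), with overlapping groups, and the call was lost without replicate 1, 2, 3, 5 or 6, where leaving out replicates 3 and 4 gave the extremes of -4.42 and -2.01.

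Wide gaps in MMP1 between edge and center were also seen on days 15 and 16. On day 15 the edge samples had 0.593, 1.63 and 2.54 CPM and the center samples 47.3, 365 and 547 CPM. On day 16 the edge samples had 6.04, 8.65 and 2.87 CPM and the center samples 369, 573 and 1100 CPM. On both days the lowest center sample was well above the highest edge sample. The log2 fold changes were -7.76 ± 1.14 (adjusted p = 0.0178) and -6.77 ± 0.65 (adjusted p = 0.0131), and both calls were lost without replicate 2 or 3, where 2 samples per location remained. Without replicate 3 the difference of day 16 was -5.97. On day 19 the edge samples had 75.6, 79.8 and 1.43 CPM and the center samples 32.6, 169 and 17.2 CPM, so the groups overlapped, and on day 21 the edge had 0.491 to 5.51 CPM and the center 8.06 to 69.0 CPM without overlap and without a call (adjusted p = 0.388). Hair follicle markers, summed over 6 genes, were 2206, 5981 and 2.4 CPM at the edge on day 15. At the edge they were 71.3 to 209.5 CPM on day 16, 0.5 to 2.3 CPM on day 19 and 743 to 2147 CPM on day 21. They were 20.9 to 12898 CPM in day 0 skin and at most 10.2 CPM in the center of these days. Their part in the member levels of these days was not tested.

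Relative to day 0, MMP1 was higher in the center in 14 of 14 states, with log2 fold changes of 3.91 to 11.23, and at the edge in 12 of 14 states. The 2 edge states without a call were day 15, with a log2 fold change of 1.70 ± 1.11 (adjusted p = 0.384), and day 21, with 2.67 ± 1.06 (adjusted p = 0.0617). On those days the edge samples ranged from 0.491 to 5.51 CPM, against at most 0.628 CPM in the skin. The state means ran from 9.37 ± 0.32 (SD, log2(1 + CPM)) on day 1 at the edge to 0.55 ± 0.13 in day 0 skin, and 26 of the 28 neighbouring pairs in that order lay closer than the larger of their SDs. The edge of day 1, the center of day 16 and the center of day 11 were the 3 highest states and did not differ beyond that spread.

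MMP13, or collagenase 3, was near the limit of detection in day 0 skin, with 0.0 to 0.628 CPM, and also in most center samples of days 1 and 2. On day 1 the center samples had 0.0, 0.0, 0.106, 0.0, 6.37 and 0.0 CPM, the 6.37 CPM being again the library of replicate 5, and the edge samples had 2.07 to 25.1 CPM. The difference of 3.38 ± 1.32 had an adjusted p of 0.0521, which was 0.0171 with the wound as a block, and the log2 fold change without replicate 5 was 8.75. On day 2 the center samples had 0.0 to 0.89 CPM and the edge samples 8.44 to 71.6 CPM, with no overlap and a log2 fold change of 7.24 ± 0.91 (adjusted p = 4.17e-05). Leaving out 1 wound of day 2 gave values of 6.64 to 8.73, the farthest being those without replicates 2 and 3.

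For MMP13 the edge was called higher on days 2, 4 and 5. On day 3, the difference of 2.50 ± 1.33 had an adjusted p of 0.451, and without the libraries that stood apart it was 6.25 ± 0.74 with an adjusted p of 0.000294. On day 4 the edge was higher by 3.49 ± 0.74 (adjusted p = 0.00337; 4.78 without replicate 5), and on day 5 by 2.73 ± 0.78 (adjusted p = 0.0147; 3.75 without replicate 1, and no call without replicate 4). On day 5 the edge samples ranged from 23.4 to 85.2 CPM and the center samples from 0.374 to 22.4 CPM, without overlap. On days 6, 7, 9 and 13 the groups overlapped and edgeR made no call, while DESeq2 also called the center higher on days 9, 13 and 21, which gave 6 such days in place of 3.

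The center of later wounds held the highest levels of MMP13. The difference of day 11 was -2.75 ± 0.51 (adjusted p = 0.00124), with 29 to 345 CPM in the center and 16.6 to 33.1 CPM at the edge. On day 15 the center samples had 72.1, 137 and 95.3 CPM and the edge samples 2.96, 0.409 and 1.48 CPM. On day 16 the center samples had 215, 206 and 494 CPM and the edge samples 34.6, 9.35 and 15.3 CPM. The groups were separate on both days, with log2 fold changes of -6.00 ± 0.74 (adjusted p = 0.0165) and -3.82 ± 0.65 (adjusted p = 0.0277). Both calls were lost without replicate 2 or 3, and leaving out replicate 1 or 2 moved the value of day 15 to as far as -7.11 or -5.22, and leaving out replicate 1 or 3 that of day 16 to as far as -4.81 or -3.15. On day 21 the center had 17.1 to 88.2 CPM and the edge 0.437 to 4.47 CPM, without overlap and with an adjusted p of 0.242. Against day 0, MMP13 was higher in 12 of 14 center states, all but days 1 and 2, and in 12 of 14 edge states, all but days 15 and 21. The call of the day 4 center was lost with the animal as a block (adjusted p = 0.053).

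The same turn from edge to center was seen within wounds, where the edge and the center biopsy came from the same wound. MMP1 was higher at the edge in 18 of 18 wounds on days 1 to 3, in 19 of 24 on days 4 to 7, in 2 of 18 on days 9 to 13 and in 1 of 12 on days 15 to 21. The mean difference within wounds, edge minus center in log2(1 + CPM), was 4.34, 0.79, -3.35 and -4.20 in these 4 phases. For MMP13 the edge was higher in 17 of 18, 21 of 24, 4 of 18 and 1 of 12 wounds. MMP13 thus kept its edge excess through days 4 to 7 in most wounds, while for MMP1 the mean difference of those days was already small. The 18 wounds of days 1 to 3 include wounds whose biopsies were alike in the marker lists, so that they compare edge and center poorly. In the day 3 wound of replicate 4, keratinocyte markers were 35656 CPM at the edge and 32782 CPM in the center. Hair follicle markers were 2007 and 1791 CPM there, skeletal muscle markers 131 and 126 CPM, and MMP1 158 and 149 CPM. In the day 3 wound of replicate 6 the keratinocyte markers were low in both, 79.5 and 9.9 CPM. Adipocyte markers were 9252 and 9196 CPM there, fibroblast markers 37295 and 41327 CPM, and MMP1 34.7 and 13.8 CPM.

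Each of the 6 animals showed this turn. On days 1 to 3 the mean difference of MMP1 within wounds was 2.80 to 5.21 in the 6 animals, and on days 9 to 13 it was -5.16 to -2.64. The animals 1 to 3 went from 3.99 to -3.74 and the animals 4 to 6 from 5.02 to -3.16, so the turn was present in both sets of animals although they were sampled on different days. For MMP13 the 6 animals ranged from 2.85 to 5.36 on days 1 to 3, from 1.87 to 2.78 on days 4 to 7, and from -3.79 to -0.44 on days 9 to 13.

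**Figure D3:**
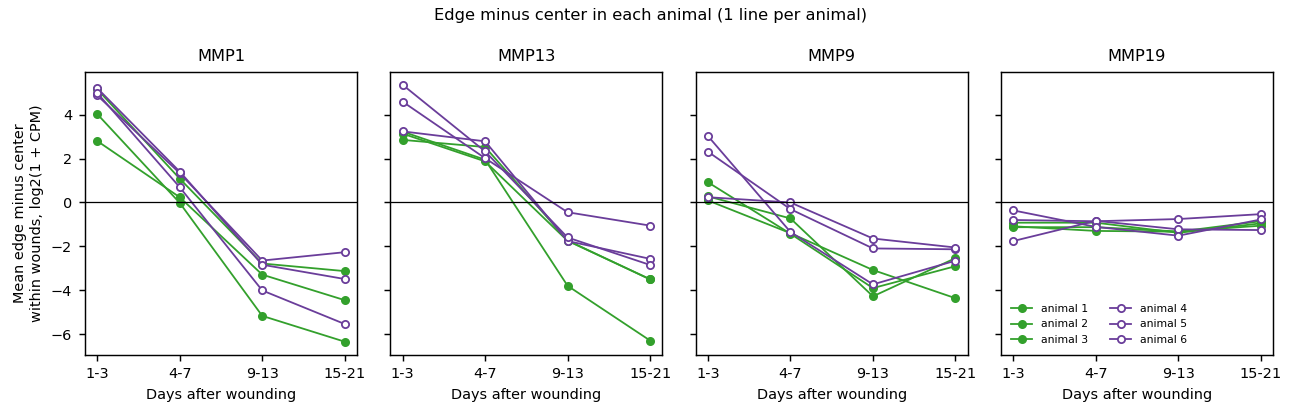
Mean difference between edge and center within wounds, in log2(1 + CPM), for each of the 6 animals in 4 phases, with filled green points for animals 1 to 3 and open purple points for animals 4 to 6. All 6 lines of MMP1 and MMP13 cross from above 0 on days 1 to 3 to below 0 on days 9 to 13, those of MMP9 end below 0, and those of MMP19 stay below 0 in all 4 phases.

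The change of the edge to center difference from days 1 to 3 to days 9 to 13 was tested in the fit of all samples. It was called for 4 of the 10 member rows, all in the direction of the center, beside 28.6% of all genes in either direction. The log2 change was -6.95 ± 0.68 for MMP1 (adjusted p = 1.67e-14), -6.30 ± 0.75 for MMP13 (adjusted p = 5.3e-11), -3.13 ± 0.47 for MMP9 (adjusted p = 1.04e-07) and -0.77 ± 0.15 for MMP14 (adjusted p = 4.07e-05). DESeq2 called the same 4 genes. For MMP2, MMP19, TIMP1, TIMP2 and both TIMP3 rows the changes lay between -0.66 and 0.27 and were not called.

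The keratinocyte marker sum was set beside the collagenases in each library. On days 1 to 3, the 17 edge libraries with at least 1000 CPM of keratinocyte markers had 102 to 915 CPM of MMP1, and the 1 edge library below 1000 CPM had 34.7 CPM. Of the 18 center libraries of those days, the 15 below 1000 CPM of keratinocyte markers had 2.94 to 54.1 CPM of MMP1, and the 3 above had 12.6 to 249 CPM. On days 9 to 13, 14 of 18 center libraries were below 1000 CPM of keratinocyte markers and had 22.8 to 4071 CPM of MMP1, with a median of 372 CPM, while the 18 edge libraries, with 22604 to 75256 CPM of these markers, had 4.87 to 378 CPM, with a median of 31.7 CPM. Day 0 skin, with as much of these markers as the edge, had at most 0.628 CPM. In the center MMP13 followed the same order, with 0.0 to 1.18 CPM in the 15 early center libraries below 1000 CPM of keratinocyte markers and 27.7 to 531 CPM in the 14 late ones. At the edge it did not. In edge libraries of at least 1000 CPM the median of MMP13 was 21.7 CPM on days 1 to 3 and 40.4 CPM on days 9 to 13. For MMP1 these medians were 378 and 31.7 CPM. On days 9 to 13 the center levels of MMP13 and of the MMP1 row, which may hold MMP3 reads, were thus present in libraries with low keratinocyte markers. The 4 center libraries of those days at or above 1000 CPM had 122 to 609 CPM of MMP1 and 75.0 to 228 CPM of MMP13. On days 4 to 7 all 24 center libraries were below 1000 CPM, with 20.3 to 438 CPM of MMP1 and 0.374 to 156 CPM of MMP13. On days 15 to 21, 11 of 12 center libraries were at or above it, with 8.06 to 1100 CPM of MMP1 and 17.1 to 494 CPM of MMP13. On days 9 to 13 the fibroblast markers were at 78957 to 169084 CPM in the center and at 57043 to 139175 CPM at the edge. The macrophage markers were at 617 to 2773 CPM in the center and at 274 to 1347 CPM at the edge. Their part in the collagenase levels was not tested.

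**Figure D4:**
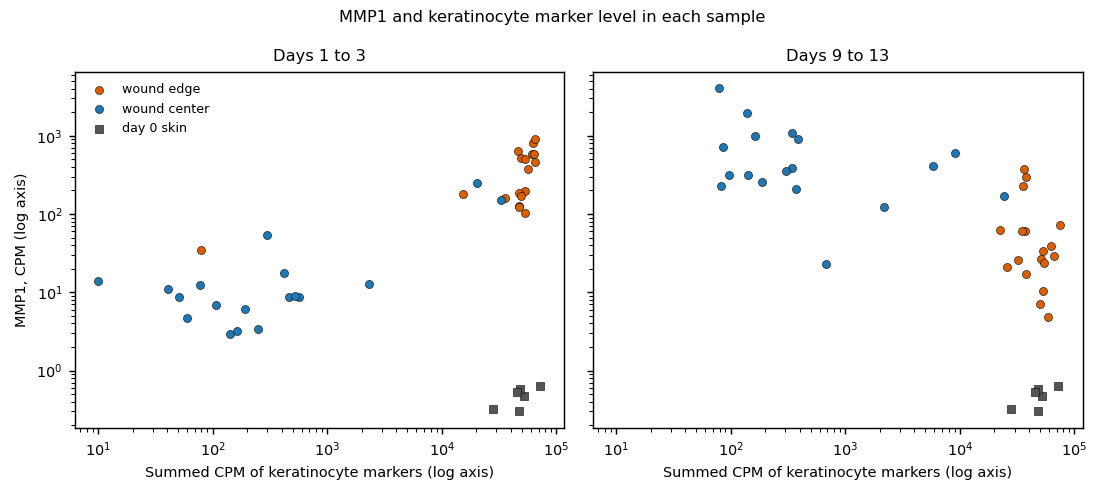
MMP1 level in CPM on the vertical log axis against the summed CPM of 7 keratinocyte markers on the horizontal log axis, 1 point per sample, for days 1 to 3 and days 9 to 13, with day 0 skin in both panels. Early MMP1 was high in samples with many keratinocyte transcripts, and on days 9 to 13 most center samples with more than 100 CPM of MMP1 had less than 1000 CPM of keratinocyte markers.

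MMP9, the gelatinase also known from neutrophils and macrophages, had the widest range of the members. It was 2.20 to 5.77 CPM in day 0 skin and was higher in all 14 center states, with log2 fold changes of 4.72 to 10.09, and in all 14 edge states, with 4.43 to 7.99. On day 1 it was 39.3 to 383 CPM at the edge and 29.8 to 399 CPM in the center, so that both locations had risen from the skin level by the first day and overlapped. On day 7 the edge samples ranged from 166 to 1151 CPM and the center samples from 1489 to 3465 CPM. On day 11 the center samples ranged from 1616 to 5139 CPM, with a median of 3272 CPM, and the edge samples from 121 to 447 CPM. On both days every center sample was above every edge sample.

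From day 7 to day 16 MMP9 was higher in the center on 5 of the 6 days. The log2 differences, edge over center, were -2.004 ± 0.37 on day 7 (adjusted p = 0.000995), -2.31 ± 0.72 on day 9 (adjusted p = 0.0274), -3.68 ± 0.39 on day 11 (adjusted p = 4.93e-05), -4.72 ± 0.63 on day 15 (adjusted p = 0.0165) and -3.69 ± 0.38 on day 16 (adjusted p = 0.0157). The call of day 9 was lost without replicate 1, 3 or 4, and those of days 15 and 16 without replicate 2 or 3. Leaving out replicates 1 and 5 gave the extremes of day 9, -2.90 and -1.70. On day 13 the edge samples reached 2678 CPM and overlapped with the center. The difference of that day was -1.62 ± 0.71 (adjusted p = 0.11), or -2.19 with the wound as a block (adjusted p = 0.025). Within wounds the edge was higher in 11 of 18 on days 1 to 3 and in 6 of 24 on days 4 to 7, and the center was higher in all 18 wounds of days 9 to 13 and all 12 of days 15 to 21.

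Markers of other cell types were read beside MMP9. On day 11 the summed level of the neutrophil and monocyte markers was 804 to 5554 CPM at the edge, with a median of 4029 CPM. In the center it was 146 to 8706 CPM, with a median of 463 CPM, while MMP9 was higher in the center. The 8706 CPM was in the center library of replicate 1, which had 24416 CPM of keratinocyte markers. The macrophage markers of day 11 were 274 to 927 CPM at the edge and 1036 to 2293 CPM in the center. On days 7 and 9 the neutrophil and monocyte sum had medians of 2753 and 3750 CPM at the edge and 621 and 548 CPM in the center. On day 15 it was 76.2 to 337 CPM at the edge and 370 to 5301 CPM in the center. Its medians on day 16 were 479 CPM at the edge and 642.5 CPM in the center. These are levels of marker lists in the same samples, and their part in the MMP9 level was not tested.

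MMP2, the gelatinase made mainly by fibroblasts, was abundant in day 0 skin, with 636 to 1577 CPM. At the edge of day 1 it was 221 to 669 CPM, with a log2 fold change of -1.21 ± 0.25 against day 0 (adjusted p = 4.11e-05), and it was the lowest of the 29 states. The fibroblast markers were also low there, at 6773 to 29149 CPM against 42896 to 123010 CPM in day 0 skin. In the center of day 1 these markers were 13040 to 19611 CPM, while MMP2 was 857 to 1381 CPM and was not called against day 0. The part of these markers in the MMP2 level was not tested. In the center of day 16, the highest state, the samples had 6283, 8930 and 8970.5 CPM and the log2 fold change against day 0 was 3.26 ± 0.30 (adjusted p = 1.19e-17). MMP2 was above day 0 in 12 of 14 center states, from day 3, and in 11 of 14 edge states, from day 4. Between edge and center, 9 days were called, all higher in the center, with log2 differences of -0.66 to -1.78. The calls of days 6 and 15 were lost with the wound as a block (adjusted p = 0.0688 and 0.0804), that of day 5 without replicate 1, 2, 3 or 4, that of day 6 without replicate 2, 3, 5 or 6, that of day 15 without replicate 2 or 3, and that of day 16 when any 1 wound was left out.

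MMP14, the membrane-anchored activator of proMMP2, was, like MMP2, highest late and in the center. Day 0 skin had 270 to 428 CPM and was the lowest state. The center of day 15 had 1949, 3334 and 4128 CPM, which was the highest state, with a log2 fold change of 3.28 ± 0.22 against day 0 (adjusted p = 6.51e-25). MMP14 was above day 0 in 13 of 14 center states and 12 of 14 edge states, and on day 19 it was 1959 to 2783 CPM at the edge and 2433 to 3088 CPM in the center. The center was higher on 6 days, 7, 9, 11, 13, 15 and 16, by log2 differences of -0.81 to -1.60, and the groups did not overlap on days 7, 11, 13, 15 and 16. With the wound as a block the adjusted p was 0.0705 on day 15 and 0.0504 on day 16, and the call of day 9 was lost without replicate 6, that of day 15 without replicate 2 or 3 and that of day 16 when any 1 wound was left out.

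MMP19, a metalloproteinase of basement membrane and other matrix substrates, was higher in the center in more wounds than any other member. It was 8.75 to 17.1 CPM in day 0 skin and above it in all 28 wound states, with log2 fold changes of 2.36 to 4.11 in the center and 1.56 to 3.00 at the edge. The highest state was the center of day 7, with 170 to 310 CPM. The center was higher on 10 of the 14 days, with log2 differences of -0.98 to -1.45, and within wounds in 70 of 72. In contrast to the collagenases, the difference was of similar size in the 4 phases, with means within wounds of -1.02, -1.02, -1.22 and -0.90, and its change from days 1 to 3 to days 9 to 13 was not called (-0.28 ± 0.20, adjusted p = 0.338). The calls of days 15 and 16 were lost without replicate 2 or 3, and with the wound as a block day 6 was called as well (adjusted p = 0.0156).

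TIMP1, the inhibitor of most secreted metalloproteinases, was above its skin level from the first day. Its 6 day 0 samples were close together, at 26.2 to 34.6 CPM, and on day 1 the edge had 450.1 to 775 CPM and the center 293 to 1864 CPM. All 12 samples of day 1 were above the day 0 samples, and the log2 fold changes were 4.22 ± 0.46 at the edge (adjusted p = 4.19e-13) and 4.68 ± 0.47 in the center (adjusted p = 6.43e-16). The highest state was the center of day 5, with 615 to 2078 CPM and a log2 fold change of 5.51 ± 0.49 (adjusted p = 7.8e-19). From there the levels were lower on later days, with 81.2 to 103 CPM in the center and 74.8 to 82.9 CPM at the edge on day 21. TIMP1 remained above day 0 in 14 of 14 center states and in 13 of 14 edge states, with day 15 the exception (1.12 ± 0.48, adjusted p = 0.132), and the edge call of day 16 had an adjusted p of 0.051 with the animal as a block.

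TIMP1 was higher in the center than at the edge on 8 days, with log2 differences of -1.21 to -1.85. The groups were without overlap on days 4, 11, 15 and 16. On day 11 the center samples ranged from 212 to 413 CPM and the edge samples from 75.9 to 146 CPM, with a difference of -1.57 ± 0.18 (adjusted p = 6.61e-05). With the wound as a block, days 6 and 7 were called as well (adjusted p = 0.0027 and 0.0172) and days 2 and 15 were not (adjusted p = 0.0841 and 0.0824). The call of day 2 was also lost without any 1 of replicates 2 to 6, and without replicate 4, whose center library had 2255 CPM, the difference was -0.58. The call of day 9 was lost without replicate 1, 3 or 6, that of day 13 without replicate 3, and those of days 15 and 16 without replicate 2 or 3, where day 15 without replicate 3 gave -1.12.

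TIMP2, the inhibitor that also serves proMMP2 activation, had its highest levels late. In day 0 skin it had 457 to 881 CPM, and at the edge of day 1 it had 149 to 477 CPM, a log2 fold change of -1.25 ± 0.22 (adjusted p = 1.14e-06). The edge of day 1 was the lowest state, as it was for MMP2. The highest state was the center of day 19, with 2479, 2972 and 3521 CPM and a log2 fold change of 2.39 ± 0.25 (adjusted p = 3.63e-14), and the edge of that day had 1810 to 3476 CPM. TIMP2 was above day 0 in 11 center and 10 edge states, all from day 4 onwards. With the animal as a block the edge calls of days 4 and 6 were lost (adjusted p = 0.354 and 0.109) and the center of day 3 was called (adjusted p = 0.0428). Between edge and center, day 1 was the day called (-1.12 ± 0.24, adjusted p = 0.00273), and the groups overlapped on all 14 days. Within wounds the center was higher in 60 of 72, with a mean difference of -0.47, and the mean difference within wounds was in the direction of the center in all 6 animals in each of the 4 phases. DESeq2 called 3 days.

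TIMP3 was the only member below its skin level over most of the course. The larger of its rows (ENSSSCG00025027092) had 38.6 to 93.8 CPM in day 0 skin, which was the highest of the 29 states. It was below day 0 in 13 of 14 center states and 13 of 14 edge states, with log2 fold changes of -0.86 to -2.38 in the center and -1.14 to -2.37 at the edge. On day 21 the center samples had 5.26, 11.1 and 18.7 CPM, the lowest state, and the edge samples 15.1, 21.3 and 22.7 CPM. With the animal as a block, which tests each state within animals, 5 of these calls were lost, namely the center of days 3 and 11 (adjusted p = 0.0658 and 0.282) and the edge of days 3, 7 and 21 (adjusted p = 0.118, 0.0668 and 0.0713).

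TIMP3 was higher at the edge on day 15, with 19.3 to 51.2 CPM against 8.75 to 17.4 CPM in the center (1.48 ± 0.39, adjusted p = 0.0479), a call lost without replicate 2 or 3 and without the filter on low counts. With the wound as a block it was also higher at the edge on days 4 and 7 (adjusted p = 0.0307 and 0.027) and lower on day 1 (-0.78, adjusted p = 0.0179). The row lay on the plus strand at 4335078 to 4387781 of its contig, inside the row of SYN3, which ran from 4007351 to 4560820 on the minus strand. SYN3 had 107 to 192 CPM in day 0 skin and medians of 50.3 CPM at the edge and 47.5 CPM in the center. Whether the counting used strand was not given in the sources used here, so reads of these overlapping genes cannot be told apart. The second TIMP3 row, on a contig where it spans 1400 bases, had a mean of 15.7 counts per sample and was below day 0 in 8 center and 7 edge states, of which 1 and 3 were lost with the animal as a block. Between edge and center it was tested on 10 days and called on 0 by edgeR and by DESeq2, with 0 days at an unadjusted p below 0.05 in either.

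Within the wound center the members were compared between successive phases of days. From days 1 to 3 to days 4 to 7, 7 of 10 rows were higher, beside 19.8% of all genes, and 2 were lower, beside 29.9%. MMP13 changed by 3.98 ± 0.56, MMP9 by 2.59 ± 0.34, MMP1 by 2.53 ± 0.45, MMP2 by 1.67 ± 0.14 and MMP14 by 1.29 ± 0.11, all with an adjusted p of at most 8.98e-07, and both TIMP3 rows were lower. TIMP1 was not called at this step (0.07 ± 0.22, adjusted p = 0.821). From days 4 to 7 to days 9 to 13, 8 rows were higher, beside 22.9%, and 1 was lower, beside 18.3%. The proteinases MMP13 (3.59 ± 0.46), MMP1 (2.51 ± 0.42), MMP9 (1.71 ± 0.31), MMP14 (1.19 ± 0.10) and MMP2 (0.83 ± 0.13) were higher again, and so were the inhibitors TIMP2 (0.60 ± 0.12), TIMP3 (0.84 ± 0.20) and the second TIMP3 row (0.87 ± 0.29). TIMP1 fell (-1.35 ± 0.23, adjusted p = 4.07e-07), and MMP19 was not called (-0.28 ± 0.14, adjusted p = 0.0848). From days 9 to 13 to days 15 to 21, 1 row was higher, beside 14.2%, and 6 were lower, beside 13.4%. TIMP2 was the one that was higher (0.55 ± 0.14, adjusted p = 0.000861), and MMP1 (-2.18 ± 0.53), MMP9 (-1.70 ± 0.39), TIMP1 (-0.93 ± 0.27), MMP19 (-0.81 ± 0.17) and the TIMP3 rows were lower.

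The same successive phases were compared at the wound edge. From days 1 to 3 to days 4 to 7, 6 rows were higher, beside 12.7% of all genes, and 0 were lower, beside 8.8%, with no row lower at an unadjusted p below 0.05 in edgeR and none called lower by DESeq2. MMP2 (1.62 ± 0.14) and TIMP2 (1.12 ± 0.12) had the clearest changes, MMP13 changed by 1.46 ± 0.45 (adjusted p = 0.0123, or 0.0929 with the animal as a block), and MMP1 was not called (-0.34 ± 0.41, adjusted p = 0.595). From days 4 to 7 to days 9 to 13, 3 rows were higher, beside 17.9%, and 3 were lower, beside 17.3%. MMP14 (0.84 ± 0.10), MMP2 (0.64 ± 0.13) and TIMP2 (0.57 ± 0.12) rose, and TIMP1 (-1.75 ± 0.23), MMP1 (-1.56 ± 0.43) and MMP19 (-0.54 ± 0.14) fell. From days 9 to 13 to days 15 to 21, 2 rows were higher, beside 2.09%, and 4 were lower, beside 5.16%. TIMP2 (0.60 ± 0.14) and MMP14 (0.38 ± 0.12) were higher, and MMP1 (-3.47 ± 0.58), MMP13 (-2.48 ± 0.59), MMP9 (-1.85 ± 0.39) and MMP19 (-0.50 ± 0.16, adjusted p = 0.0444, or 0.0611 with the animal as a block) were lower. Without replicate 3, whose omission leaves 2 samples per location on the last 4 days, 0 rows were higher and 2 lower at this step.

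When the counts of all wounds of an animal were summed by location, with 6 animals as the replicates, 6 of 10 rows were higher in the center, beside 26.0% of all genes, and 0 at the edge, beside 26.1%. At an unadjusted p below 0.05 edgeR also had 0 rows higher at the edge, and so did the calls of DESeq2. The log2 differences, edge over center, were -1.66 ± 0.19 for MMP9 (adjusted p = 1.35e-05), -1.04 ± 0.22 for TIMP1, -0.99 ± 0.10 for MMP19, -0.81 ± 0.12 for MMP2, -0.58 ± 0.10 for MMP14 and -0.33 ± 0.13 for TIMP2 (adjusted p = 0.0453). The collagenases, which were higher at the edge early and in the center late, were not called. MMP1 had a difference of -0.52 ± 0.43 (adjusted p = 0.326) and MMP13 one of -0.75 ± 0.39 (adjusted p = 0.13, or 0.005 at -0.68 with the animal as a block). A mean of log2 differences within wounds, which gives every wound the same weight, was 0.67 for MMP13, in the direction of the edge. The means of the 6 animals were 0.045 to 1.114, and limma on these means called MMP13 higher at the edge. The 6 animals as a block and limma thus called MMP13 in opposite directions, so its difference over all days has no settled sign.

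Levels of different genes were compared per length, in the deposited FPKM values. These levels, and ratios made from them, depend on the length given for each row, such as 5203 bases for MMP1 and 938 for TIMP3. The row of MMP1 may hold reads of MMP3, and that of TIMP3 reads of SYN3. In day 0 skin the median FPKM was 222 for MMP2, 160.1 for TIMP2, 85.5 for MMP14, 71.1 for TIMP3 and 17.5 for TIMP1, and it was 6.19 for MMP19, 1.31 for MMP9, 0.121 for MMP13 and 0.099 for MMP1. In the center of day 11 it was 1730 for MMP2, 1462 for MMP9, 656 for MMP14, 455 for TIMP2, 201 for TIMP1 and 94.8 for MMP1. Day 0 skin thus held the 2 gelatinases at very unequal levels, and the center of day 11 held them at levels of the same order.

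The ratio of proteinase to inhibitor transcripts differed by time and place. The median log2 ratio of MMP9 to TIMP1 in FPKM was -3.62 in day 0 skin and -4.66 in the center of day 2, and it was 1.75, 3.06 and 0.96 in the center on days 7, 11 and 21. In the center every sample of day 11 lay above 0, with a range of 1.49 to 4.04, and every sample of day 2 below 0, with a range of -5.76 to -1.17. The ratio of MMP1 to TIMP1 was -7.59 in day 0 skin, -1.59 at the edge and -8.70 in the center of day 1, and -0.17 in the center of day 16. The ratio of MMP2 to TIMP2 was 0.45 in day 0 skin, 1.95 in the center of day 11 and 0.85 in the center of day 21. The ratio of MMP14 to TIMP2 was -1.05 in day 0 skin and 0.43 in the center of day 11, where it ranged from 0.28 to 0.57. These are ratios of transcript levels and carry no test, and enzyme activity was not measured.

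**Figure D5:**
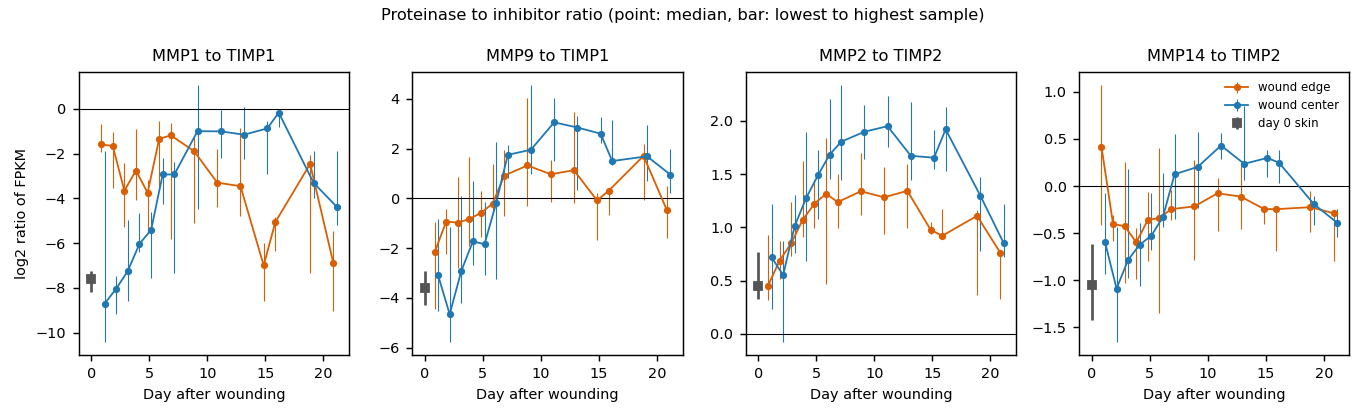
Log2 ratio of FPKM for 4 proteinase and inhibitor pairs by day after wounding, with the median as a point and the lowest and highest sample as a bar, orange for the wound edge, blue for the wound center and a grey square for day 0 skin. In the center the MMP9 to TIMP1 ratio passes from -4.66 on day 2 to 3.06 on day 11, and the MMP2 to TIMP2 ratio has its highest median, 1.95, on day 11.

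Other proteinases and regulators of the same pathways were counted in 4 lists, chosen with earlier results of these data known. Of 15 other MMP genes, 13 were found, and 39.0% of their gene and day pairs were higher than day 0 in the center and 29.1% lower, against 33% and 9.89% at the edge. Of 9 genes for other inhibitors and regulators, all were found, with 57.9% higher and 12.7% lower in the center and 49.2% and 9.52% at the edge. The 17 ADAM and ADAMTS genes, in 18 rows, had the largest share of higher pairs of the 4 lists, 79.8% in the center and 61.1% at the edge, with 5.95% and 4.37% lower. The list of plasminogen activation and cathepsins had 73.4% higher and 13.0% lower in the center and 59.1% and 3.25% at the edge. These shares stand beside 28.2% higher and 27.5% lower of all pairs in the center and 19.9% and 14.6% at the edge.

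Among these genes, those called in the most states were as follows. In the center, ADAM12, a membrane proteinase of activated mesenchymal cells, was 513 to 688 CPM on day 21 against 4.17 to 12.3 CPM in day 0 skin (log2 fold change 6.23, adjusted p = 1.08e-23). ADAMTS4, which cuts aggrecan, was 80.1 to 225 CPM in the center and 31.3 to 149 CPM at the edge of day 6, against 1.37 to 5.15 CPM in day 0 skin (5.55 and 4.62). PLAUR, the urokinase receptor, reached 119 to 380.3 CPM in the center of day 16 from 5.75 to 12.1 CPM (5.12, adjusted p = 4.52e-16). At the edge, CTSS, or cathepsin S, was 307 to 661 CPM on day 3 against 36.6 to 53.3 CPM (3.30). Each of these was above day 0 in 14 of 14 states of the location named.

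The genes called lower in the most states were MMP27, MMP7, SPOCK1 and ADAMTS2. MMP27, a metalloproteinase whose row lies beside that of MMP8, was 0.509 to 2.73 CPM in the center of day 7 against 17.7 to 37.4 CPM in day 0 skin (-4.00, adjusted p = 3.32e-08). MMP7, or matrilysin, was called lower in 13 center states and was at 0 in 2 of the 3 center libraries of day 19, with 1 count in the other, against 5.38 to 16.5 CPM in day 0 skin, and it was called lower in no edge state. SPOCK1, a matrix proteoglycan, was lower in 12 center and 8 edge states, with -2.24 in the center of day 11. ADAMTS2, which trims procollagen, was lower at the edge on 5 days, with 32.6 to 114 CPM on day 1 against 177 to 420.3 CPM in day 0 skin (-2.22, adjusted p = 5.46e-12).

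The genes whose course was most like that of each member were found by Pearson's r over the 29 state means of log2(1 + CPM), among 13509 genes. The state means share libraries and depth, so the values are a description. For MMP1 these were PDPN (0.916) and ABRACL (0.908), for MMP13 ACOT11 and MYOF (both 0.843), for MMP9 MAP4K4 (0.943) and IL21R (0.93), and for MMP2 SCARF2 (0.984) and DCHS1 (0.977). For MMP14 they were MEX3B (0.977) and ECE2 (0.976) and for MMP19 RHOC (0.975) and GAB3 (0.972). The lowest of these values were those of MMP13. For TIMP1 they were HSPA5 (0.978) and HYOU1 (0.965), which encode chaperones of the endoplasmic reticulum, for TIMP2 ZNF521 (0.975) and MMP15 (0.973), and for TIMP3 the overlapping SYN3 (0.983) and TSC22D3 (0.896). For the second TIMP3 row they were CCL24 (0.864) and HERC2 (0.859).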

How the data were processed

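Bulk RNA-seq of wound biopsies was analysed from a table of read counts per gene, which the authors deposited with FPKM values (fragments scaled to transcript length and to the mapped total) for the same 150 libraries. Per the paper's methods, RNA was prepared with a fibrous tissue kit, poly-A selected and sequenced as paired-end reads. The aligner settings, the genome build and the use of strand were not given in the sources used here. Counts were used as deposited for every test, and the deposited FPKM only to compare levels between genes.

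CPM was computed from the total count of each library, which ranged from 13133379 to 24895572, and 3 counts were taken as the limit of detection. That limit covers counting error only. Gene names came from the table for 12300 rows and from the protein match for 9387. Genes were tested with edgeR 4.0.16 (TMM scaling, filterByExpr, quasi-likelihood test, two-sided) in R 4.3.3, with Benjamini-Hochberg adjustment over all genes tested and a threshold of 0.05. Edge and center were fitted day by day, and all 150 samples in 1 fit for the comparisons with day 0, between phases and for the change of the difference. Counts summed per animal and location formed a further comparison, and the ± values are standard errors unless SD is named. Keratinocyte marker sums were read against 1000 CPM, a limit chosen after the data had been seen.

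Edge and center of a wound share its number. Their deviations from the state means correlated with a mean r of 0.27 over 14081 genes with a mean of at least 1 CPM, and were positive in 64 of 72 wounds, so fits with the wound or the animal as a block were run and are given where they change a call. Further alternatives were DESeq2 1.42.0, limma 3.58.1 on means per animal, library size without TMM, no filter on low counts, other sets of samples in the fit, each replicate number left out, other scales of the levels and, added after the data had been seen, 6 libraries left out that stood apart. The member list, the pathway and marker lists and the rule for named genes (all members, the 3 genes of the pathway lists called in the most states in each direction and location, and the 2 genes with the most similar course for each member) were chosen with earlier results of these data known. Scripts were tested on simulated data. No pair of replicates held identical counts. No column of the tables was left without a sample.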

Additional observations from a re-analysis of the deposited data

Results flagged for a closer look

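The change of the edge to center difference between days 1 to 3 and days 9 to 13 passed the test for 4 members, with log2 changes of -6.95 for MMP1, -6.30 for MMP13, -3.13 for MMP9 and -0.77 for MMP14, each in the direction of the center.

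Within groups of 6 samples, 17 of 210 groups held a sample whose gap to its nearest neighbour, as a share of the group's range in log2(1 + CPM), was above the 95% critical value of Dixon's test, which chance exceeds in about 1 in 20 groups. Several of these samples were the libraries with marker levels unlike their location. The day 1 center library of replicate 5, with 20289 CPM of keratinocyte markers, was high for MMP1 (ratio 0.78, 249 CPM against 2.94 to 8.80 CPM) and MMP13 (0.949, 6.37 CPM against 0.0 to 0.106 CPM). The day 3 center library of replicate 4, with 32782 CPM, was high for MMP13 (0.786, 37.5 CPM against 0.0 to 1.18 CPM) and low for TIMP2 (0.681, 414 CPM against 827 to 1143 CPM). The day 3 edge library of replicate 6, with 79.5 CPM, was low for MMP1 (0.767, 34.7 CPM against 123 to 180 CPM).

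The day 7 wound of replicate 2 stood apart at the edge for MMP1 (0.632, 70.5 CPM against 204 to 377 CPM), MMP19 (0.711, 238 CPM against 74.2 to 104 CPM) and TIMP1 (0.715, 1287 CPM against 101 to 209 CPM), and in the center for MMP1 (0.626, 20.3 CPM against 121 to 344 CPM). The other samples were the day 5 edge of replicate 2 for MMP1 (0.663, 31.3 CPM), the day 7 edge of replicate 4 for MMP13 (0.644, 272 CPM), the day 2 center of replicate 3 for MMP13 (0.702, 0.89 CPM) and the day 0 sample of replicate 6 for MMP19 (0.643, 8.75 CPM). For the inhibitors they were the day 2 edge of replicate 5 (0.67, 195 CPM) and the day 2 center of replicate 4 (0.629, 2255 CPM) for TIMP1, the day 9 edge of replicate 4 for TIMP2 (0.627, 764 CPM) and the day 3 center of replicate 6 for the second TIMP3 row (0.657, 1.94 CPM).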

How the results depend on the processing

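Of 876 recomputed values of 75 results, 811 stayed within the limits set for them, 64 moved and 1 changed sign, namely the summed difference of MMP13, which was 0.67 by limma on 1 mean difference per animal. All 4755 recomputed values of called member tests kept their sign. Of 53 edge to center calls, the wound as a block kept 47, lost 6 and added 10, which gave 11 pairs higher at the edge in place of 7. The animal as a block kept 283 of 298 other calls, and these blocks changed no call of a member beyond those given with the results. With the wounds of an animal summed within each state, so that the animal was the replicate, 338 of 345 calls were kept, 7 lost and 13 added. Against the day 0 samples of the same 3 animals, 231 of 245 calls were kept, 14 lost and 1 added. DESeq2 kept 348 of 350 calls and added 20, and gave MMP13 6 days with the center higher in place of 3. Without the 6 libraries that stood apart, 347 calls were kept and 4 lost.

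The counts of calls rested most on replicates 2 and 3, which are also 2 of the 3 samples of days 15 to 21. Leaving out 1 replicate number gave 25 to 45 pairs higher in the center (25 without replicate 3), 1 to 2 rows lower in the center from days 1 to 3 to days 4 to 7 (1 without replicate 3), 1 to 2 rows lower at the next center step (2 without replicate 4 or 5, and 2 without TMM), and 0 to 2 rows higher and 2 to 4 lower at the last step of the edge (0 higher and 2 lower without replicate 3). By limma on 1 mean difference per animal, 1 row, MMP13, was higher at the edge over all days in place of 0. With the animal as a block MMP13 was instead called higher in the center (-0.68, adjusted p = 0.005). The cause of these moves was not tested. Levels under 0.121 to 0.228 CPM could not be told from 0.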
